A study of Mus musculus with 84 samples.

Results

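The respiratory chain is the set of protein complexes in the inner mitochondrial membrane that passes electrons from nutrients to oxygen and makes ATP. The genes described here are its subunits and a family of assembly factors, chosen by symbol among protein-coding genes of the mouse genome GRCm38: symbols that start with mt-Nd, mt-Co, mt-Cytb, mt-Atp, Ndufa, Ndufb, Ndufc, Ndufs, Ndufv, Uqcr, Cox4, Cox5, Cox6, Cox7, Cox8 or Atp5, together with Sdha, Sdhb, Sdhc and Sdhd. Of 107 matching symbols in the annotation, 106 were listed in the count table of the experimental autoimmune encephalomyelitis (EAE) experiment and 103 of them reached 10 counts in total, out of 23324 such genes among the 48526 listed. Cox4i2, Ndufa4l2 and Cox8c did not reach that minimum and are not described further. Genes were assigned to complexes by the start of their symbol alone. Ndufa4 is thus counted under complex I and Atp5s under complex V, whatever the place of their products. Of the 103 genes, 13 are encoded in the mitochondrial genome (7 subunits of complex I, 1 of complex III, 3 of complex IV and 2 of complex V) and 90 in the nucleus (37 subunits of complex I, 8 Ndufaf assembly factors of complex I, 4 subunits of complex II, 8 of complex III, 16 of complex IV and 17 of complex V).

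Complex I oxidises NADH, complex II oxidises succinate, complex III passes electrons on to cytochrome c, complex IV reduces oxygen and complex V is the ATP synthase. The mitochondrial genome is transcribed inside the organelle as long precursors that are cut into single messengers, and it supplies core subunits of every complex except complex II, whose 4 subunits are all nuclear. The nuclear subunits are transcribed like other genes, under regulators that include NRF1, ERR alpha (Esrra) and the coactivator PGC-1 alpha (Ppargc1a), and are imported after translation. Astrocytes are known for high glycolysis and lactate release, and they also respire. The comparisons ask how both sets of transcripts differ between astrocyte populations and over the course of EAE.

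The EAE experiment held 66 libraries of female C57BL/6J mice in 12 groups. Unimmunized controls (C) were compared with mice immunized with the myelin peptide MOG35-55 in complete Freund's adjuvant and given pertussis toxin, sampled at score 1 with a limp tail (E1), at score 4 with hind-leg paralysis (E4) or at the chronic stage (Ech). Each stage was sampled as hindbrain GLASTneg, hindbrain GLASTpos and spinal cord GLASTneg astrocytes, which were sorted from dissociated tissue as live cells without the myeloid surface proteins CD11B and CD45, with the astrocyte surface protein ACSA-2 and with or without the glutamate transporter GLAST. In that order of populations, there were 5, 5 and 5 control libraries, 6, 6 and 5 at E1, 6, 6 and 6 at E4 and 6, 4 and 6 at Ech. The subtype experiment held 15 libraries of untreated FVB/N mice, 3 for each of forebrain GLASTneg, forebrain GLASTpos, hindbrain GLASTneg, hindbrain GLASTpos and spinal cord GLASTneg astrocytes, and 3 libraries of primary neonatal C57BL/6J astrocytes kept in culture. The cultures came from cerebrum and received medium conditioned by a cell line before microglia were shaken off. Astrocytes of up to a pair of mice were pooled for a library. Titles of the EAE libraries also carry 1 or 2 numbers that recur across the populations of a stage, but the labels do not say what they stand for, so libraries were treated as separate and p-values measure the spread between them. The libraries read the 3′ ends of polyadenylated transcripts and held 1313682 to 4895220 counts in the EAE experiment (median 2936680), 416768 to 1269316 in isolated astrocytes of the subtype experiment (median 907710) and 2183464 to 8188074 in culture. Levels are CPM, the counts of a gene per 1e6 counts of the library, after scaling of libraries by the TMM method of edgeR, given as mean ± SD across a group's libraries, and both experiments were scaled apart. A gene passed when the two-sided quasi-likelihood test of edgeR gave a p under 0.05 after Benjamini-Hochberg adjustment over all genes of the fit, and rose or fell below refers to such genes.

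Several libraries and labels called for care. For spinal cord replicate 1 at E1 the title gives spinal cord and other labels hindbrain, and the title was used. Spinal cord replicate 2 at E1 lay with the controls, with a summed level of astrocyte markers of 22252 CPM against 4317 to 9917 CPM elsewhere in its group. In spinal cord the summed level of 10 astrocyte markers (including Slc1a2, Aqp4 and Gja1) was 16502 ± 2004 CPM in controls, 9961 ± 7169 at E1, 3234 ± 707 at E4 and 4960.1 ± 1021 at Ech, while 10 oligodendrocyte markers summed to 22087 ± 11307, 41800.2 ± 13304, 53354 ± 16669 and 32622 ± 7389 CPM. Myeloid markers summed to 14.4 to 47.1 CPM in spinal cord controls and 133 to 4874 CPM at E4, the highest in replicate 2. Titles carry a number after the letter S whose meaning is not stated. It was over 56 in all GLASTpos and all control spinal cord libraries, and at most 56 in all hindbrain GLASTneg libraries and in 5 of 6 spinal cord libraries at E4. In the subtype experiment another table of the study gives 12 of the 15 isolated libraries another population name than the labels do, and the summed level of Hox genes, which mark the cord, was 1073 ± 13.7 CPM in the libraries labelled hindbrain GLASTneg and 7.51 ± 11.1 CPM in those labelled spinal cord, against 1143 ± 222 CPM in spinal cord controls of the EAE experiment.

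The transcript ends show which mitochondrial genes a 3′ read can tell apart. A read covers 50 bases, and in GRCm38 the 3′ ends of 6 mitochondrial genes also occur in other annotated genes, mostly a block of pseudogenes on chromosome 1 that is a near copy of a part of the mitochondrial genome. These 6 are mt-Co1, mt-Co2, mt-Co3, mt-Atp6, mt-Nd3 and mt-Nd4l, for which at least 95% of the 50-base windows in the last 300 bases were shared, so that their reads can be split or dropped in counting and their values are uncertain. The other 7, mt-Nd1, mt-Nd2, mt-Nd4, mt-Nd5, mt-Nd6, mt-Cytb and mt-Atp8, were under that limit and are called genes with distinguishable ends below. Of these, mt-Nd2 shared 31.9% of its windows. mt-Atp8 (chrM:7766-7969) ends inside mt-Atp6 (chrM:7927-8607) on the same strand. Genes that overlap a gene's own position were left out of the comparison, which covered annotated transcripts and not the rest of the genome. mt-Atp8 lies between mt-Co2 and mt-Co3, whose copies lie in the chromosome 1 block. Whether mt-Atp8 has a copy there was not examined, so for this gene the name holds only within these limits. The last 100 bases before the shared end are printed for mt-Co3 and mt-Co2, with the last 50 bases, one read length, in capitals. Their pseudogenes Gm28437 (chr1:24613189-24613971, minus strand) and Gm28661 (chr1:24614885-24615565, minus strand) hold the same letters, and 783 of 783 and 681 of 681 aligned bases match over the whole genes.

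mt-Co3, complex IV subunit (chrM:8607-9390, plus strand): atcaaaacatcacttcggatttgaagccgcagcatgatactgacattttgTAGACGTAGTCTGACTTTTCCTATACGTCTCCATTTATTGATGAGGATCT
mt-Co2, complex IV subunit (chrM:7013-7696, plus strand): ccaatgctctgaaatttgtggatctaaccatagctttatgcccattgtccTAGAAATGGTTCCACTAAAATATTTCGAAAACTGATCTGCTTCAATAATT

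The 3′ ends of mt-Cytb and mt-Nd1, the genes on which the following results turn, have the last 50 bases in capitals in the same way.

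mt-Cytb, complex III subunit (chrM:14145-15288, plus strand): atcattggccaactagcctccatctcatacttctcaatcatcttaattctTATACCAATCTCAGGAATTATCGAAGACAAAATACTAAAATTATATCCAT
mt-Nd1, complex I subunit (chrM:2751-3707, plus strand): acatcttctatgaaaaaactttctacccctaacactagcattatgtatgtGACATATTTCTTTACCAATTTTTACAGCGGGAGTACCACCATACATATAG

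In spinal cord astrocytes the mitochondrial-encoded transcripts with distinguishable ends were lower at E4 and at Ech than in controls, while the summed level of the nuclear genes overlapped that of controls. At E4, 6 of these 7 genes fell and none rose, and the same 6 fell at Ech: mt-Cytb, the only complex III subunit made in mitochondria, and the complex I subunits mt-Nd1, mt-Nd2, mt-Nd4, mt-Nd5 and mt-Nd6. For all 6, at both stages, every EAE library lay below every control library, which held for 7.01% of all genes at E4 and 6.65% at Ech. Over all 103 genes 27 passed at E4 (5 rose and 22 fell), or 26.2% against 22.4% of all genes tested, and 20 passed at Ech (5 rose and 15 fell) against 18.7% of all genes. The S number in the titles was at most 56 in 5 of 6 E4 libraries and in none of the controls, and with it as a term 11 genes passed at E4, the 6 mitochondrial genes among them. Of all genes 9.76% rose and 12.7% fell at E4, and 7.64% rose and 11.0% fell at Ech.

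mt-Cytb was at 16164, 17008, 17142, 19039 and 19879 CPM in the 5 control libraries of spinal cord. Its lowest, median and highest values were 3067, 7048 and 10176 CPM at E4 and 7071, 7266 and 9006 CPM at Ech. The groups did not overlap, and E4 held the library with the lowest value. The fall was 2.61-fold at E4, with a log2 fold change of -1.39 ± 0.20 (adjusted p = 5.1e-08), and 2.36-fold at Ech, with -1.24 ± 0.20 (adjusted p = 1e-06). mt-Nd4 encodes a proton-pumping subunit of complex I and was at 16676, 18034, 18475, 19504 and 24849 CPM in controls, against 5758, 10412 and 14609.7 CPM (lowest, median, highest) at E4 and 5492, 7667 and 9544 CPM at Ech. Its log2 fold change was -0.98 ± 0.19 (adjusted p = 4e-05) at E4 and -1.36 ± 0.19 (adjusted p = 3.7e-08) at Ech, where its libraries lay lower than at E4 in median.

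The other 4 genes encode further membrane subunits of complex I. mt-Nd1 lay between 10421 and 11392 CPM in controls, between 3543 and 8543 CPM at E4 and between 4481 and 6545 CPM at Ech, with log2 fold changes of -0.81 ± 0.16 (adjusted p = 5.5e-05) and -1.08 ± 0.16 (adjusted p = 2e-07). mt-Nd2 lay between 7280.2 and 10611, between 3624 and 5721 and between 2713 and 3840.2 CPM in the same groups, with -0.96 ± 0.19 (adjusted p = 5.5e-05) and -1.39 ± 0.19 (adjusted p = 2e-08). In both genes the Ech mean was below the E4 mean, though neither passed between Ech and E4. mt-Nd5 lay between 2204 and 3769, between 1408 and 1682 and between 1103 and 1459.7 CPM, with -0.77 ± 0.17 (adjusted p = 0.00028) and -1.08 ± 0.17 (adjusted p = 5.8e-07). mt-Nd6 lay between 1131 and 2399, between 564 and 927 and between 567 and 1038 CPM, with -1.14 ± 0.21 (adjusted p = 1.4e-05) and -1.24 ± 0.21 (adjusted p = 3.1e-06). mt-Nd6 is the one messenger on the other strand of the mitochondrial genome and its annotation overlaps mt-Nd5, and with the counting's strand mode unknown, reads in the overlap cannot be assigned between them. At Ech all 6 fell more than 2-fold, as did 9.57% of all genes tested.

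The remaining mitochondrial genes did not pass at either stage, and their libraries spread widely. mt-Atp8, a complex V subunit at low level, lay between 7.44 and 43.05 CPM in controls, between 16.1 and 199 CPM at E4 and between 1.10 and 62.1 CPM at Ech. mt-Co3, a core subunit of complex IV, lay between 219.8 and 2152, between 300.3 and 3851 and between 8.22 and 3199 CPM, and its 95% interval at E4 ran from -1.09 to 2.57 on the log2 scale. mt-Co1, the catalytic core of complex IV, lay between 1266 and 2237, between 705 and 2157 and between 699 and 2406 CPM, with a log2 fold change at Ech of -0.65 ± 0.35 (adjusted p = 0.18). The other 4, mt-Co2, mt-Atp6, mt-Nd3 and mt-Nd4l, had standard errors between 0.75 and 0.91 at E4 and adjusted p of 0.7 or more there. With intervals of this width, a change of the size seen in mt-Cytb was not detectable in the 6 genes with shared ends other than mt-Co1.

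**Figure D1:**
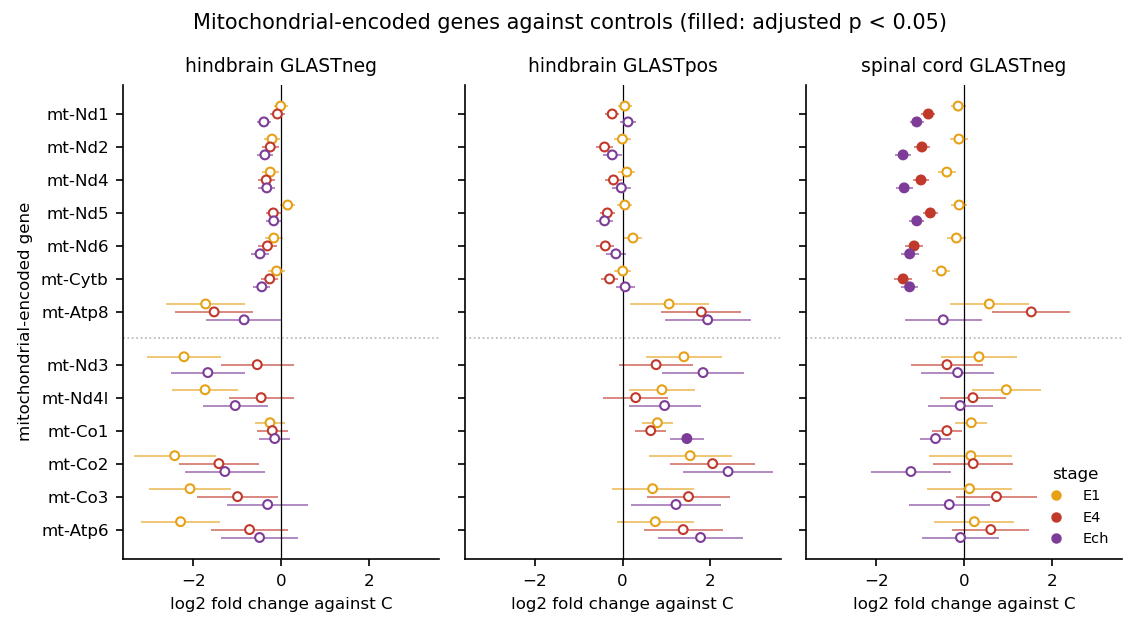
Log2 fold change ± SE of the 13 mitochondrial-encoded genes at E1, E4 and Ech against controls, 1 panel for each astrocyte population, with filled points at an adjusted p under 0.05 and a dotted line between the 7 genes with distinguishable 3′ ends and the 6 with shared ends. In spinal cord 6 genes lie below 0 with filled points at E4 and Ech. None is filled in hindbrain GLASTneg, and in hindbrain GLASTpos the one filled point is mt-Co1 at Ech. Spinal cord error bars of mt-Atp8 and of the genes with shared ends other than mt-Co1 are several times longer than those of the 6 genes.

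Summed over the 7 genes with distinguishable ends, the mitochondrial-encoded level in spinal cord was 61295 ± 5185 CPM in controls (n = 5), 49291 ± 14937 at E1 (n = 5), 29798 ± 7305 at E4 (n = 6) and 25648 ± 3226 at Ech (n = 6). Control libraries ran from 56003 to 69938 CPM and did not overlap those at E4 (18345 to 37369.6 CPM) or Ech (22654 to 30756 CPM). The 90 nuclear genes summed to 14788 ± 343 CPM in controls, 15879 ± 1469.7 at E1, 12809.5 ± 2783 at E4 and 14470.0 ± 1818 at Ech, and the range of controls (14340.5 to 15117 CPM) lay inside that of E4 (9568 to 16888 CPM). The 6 genes with shared ends summed to 5127 ± 2910.1 CPM in controls and 5733 ± 4328 CPM at E4, with ranges that overlapped.

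The ratio of all 13 mitochondrial to all 90 nuclear counts within a library is free of any scaling between libraries. Its log2 was 2.17 ± 0.0762 in spinal cord controls, 1.77 ± 0.288 at E1, 1.44 ± 0.448 at E4 and 1.01 ± 0.227 at Ech, which is a difference from controls of -0.392, -0.726 and -1.16 in that order. Taken instead as the mean of log2(CPM + 1) over genes, which weights genes alike, the differences in spinal cord were 0.0821, -0.027 and -1.21, with no fall of that size at E1 or E4. In hindbrain GLASTneg astrocytes the differences were -0.286, -0.298 and -0.358 against a control SD of 0.308 in summed counts and -1.29, -0.585 and -0.878 as means over genes, and in hindbrain GLASTpos astrocytes 0.0289, -0.07 and 0.151 against 0.141, and 0.322, 0.38 and 0.791. Mitochondrial-encoded transcripts made up 6.67 ± 0.340% of the counts of spinal cord controls, 3.34 ± 0.881% at E4 and 3.16 ± 0.482% at Ech. These summed values are descriptions and carry no test.

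**Figure D2:**
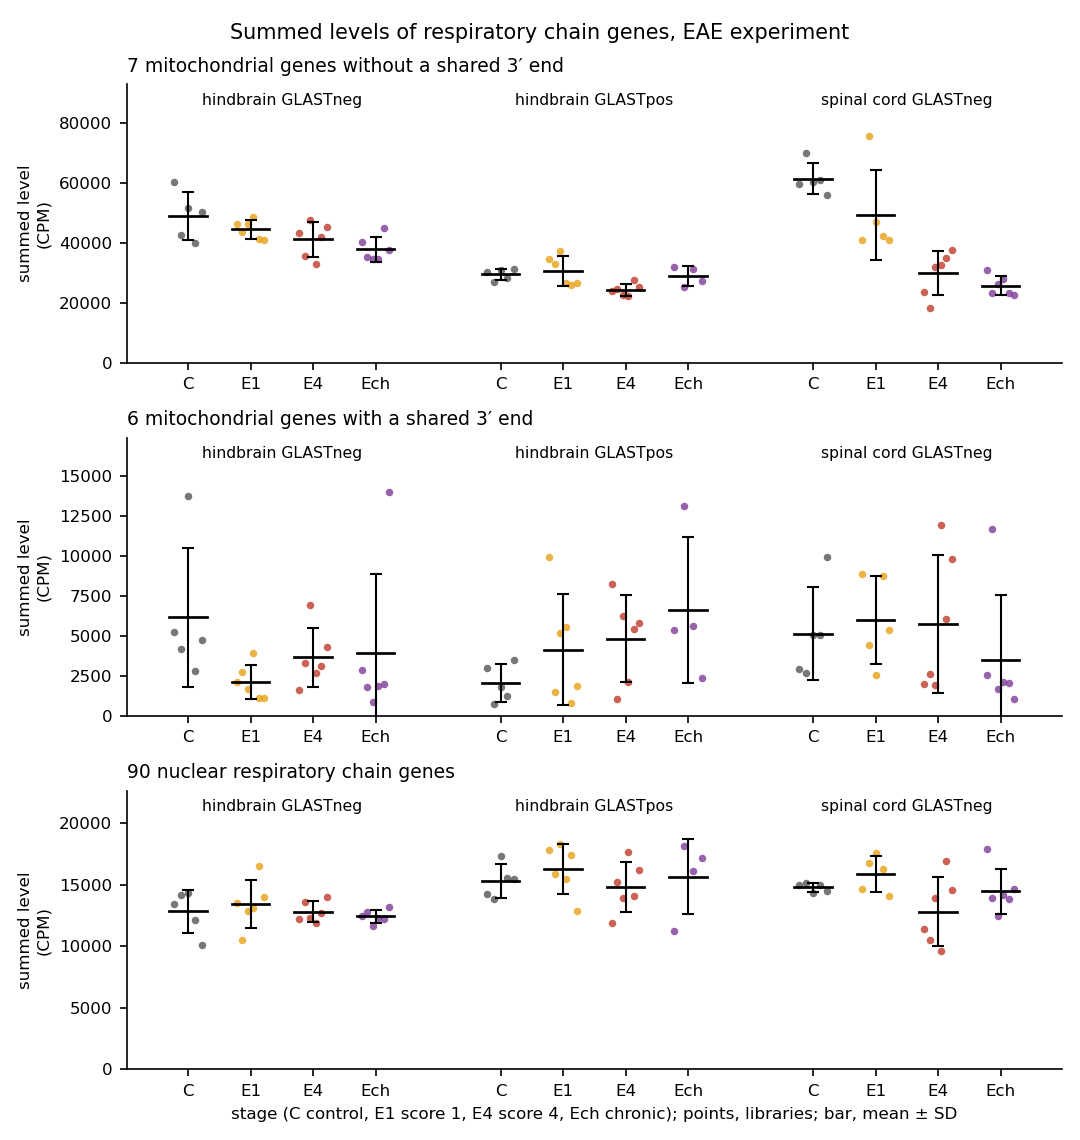
Summed level in CPM of the 7 mitochondrial genes with distinguishable 3′ ends, of the 6 with shared ends and of the 90 nuclear genes, with 1 point per library in the 12 groups of the EAE experiment and the mean ± SD beside the points. In spinal cord the 7 genes fall from 61295 to 29798 CPM at E4 and 25648 CPM at Ech in the mean, while the mean nuclear sum lies between 12809.5 and 15879 CPM.

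In bulk samples fewer cells of a type and less RNA per cell cannot be told apart. Markers of other cells moved with the stage in spinal cord, as given above, and cytosolic ribosomal protein messengers summed to 10494 ± 2155 CPM in controls, 24416 ± 3732 at E4 and 30797 ± 7143 at Ech. Immediate early and heat shock genes, which rise with dissociation and stress, summed to 155 ± 50.3, 472 ± 235 and 447 ± 176 CPM. Their part in the fall of mitochondrial transcripts was not tested. The 6 genes passed in all 9 alternative analyses at E4 and all 10 at Ech, and without any 1 of the 11 libraries at each stage.

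Among the 90 nuclear genes 5 rose and 16 fell at E4, against 9.76% of all genes that rose and 12.7% that fell, and 5 rose and 9 fell at Ech, against 7.64% and 11.0%. The median log2 fold change of the nuclear genes was -0.16 at E4 and 0.01 at Ech, beside -0.96 and -1.24 for the 7 mitochondrial genes and 0.00 for all genes tested. At E4 the changes by complex were 3 up and 6 down of 37 in complex I, 1 up and 1 down of 8 assembly factors, none up and 1 down of 4 in complex II, none up and 3 down of 8 in complex III, 1 up and 2 down of 16 in complex IV and none up and 3 down of 17 in complex V. At Ech they were 2 up and 4 down in complex I, 1 up and 1 down among assembly factors, none in complex II, 1 up and 1 down in complex III, 1 up and 2 down in complex IV and 1 down in complex V.

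Among passing nuclear genes of at least 5 CPM the largest change was in Cox7a1, the form of the complex IV subunit 7a known from heart and skeletal muscle. It was at 40.1, 45.8, 48.5, 51.1 and 55.2 CPM in the 5 spinal cord controls and 5.93, 6.85, 11.2, 19.6 and 23.6 CPM in the 5 libraries at E1. Its lowest, median and highest values were 2.22, 4.07 and 7.33 CPM at E4 and 2.10, 3.53 and 6.30 CPM at Ech. All 17 EAE libraries of spinal cord lay below all controls, and 3 of the 5 E1 libraries lay above all those at E4 and Ech. Cox7a1 fell 3.56-fold at E1, 10.6-fold at E4 and 11.6-fold at Ech, with log2 fold changes of -1.83 ± 0.44 (adjusted p = 0.0035), -3.40 ± 0.45 (adjusted p = 4.8e-09) and -3.53 ± 0.45 (adjusted p = 1.8e-09). The 7 markers of pericytes and mural cells summed to 25.3 ± 12.2 CPM in controls, 10.9 ± 9.72 at E1, 3.62 ± 0.836 at E4 and 10.996 ± 10.1 at Ech, and their part in the fall of Cox7a1 was not tested. The other forms did not show a fall that passed: Cox7a2, the widely expressed form, was at 202 ± 34.1 CPM in controls and 231 ± 57.2 CPM at E4 (log2 fold change 0.19, adjusted p = 0.54), and Cox7a2l, a relative that takes part in joining complexes III and IV, rose at E4 from 16.2 ± 4.95 to 62.2 ± 49.4 CPM (1.94 ± 0.43 (adjusted p = 0.00032)). The rise of Cox7a2l was uneven, with 9.72, 27.6, 33.7, 56.6, 117.04 and 129 CPM over the 6 libraries, 1 of them below the control range of 11.4 to 21.99 CPM.

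Of the other paired complex IV forms, the common ones passed nowhere at E4 except Cox7b, which fell at an adjusted p that rounds to 0.05 and did not pass in 8 of 11 analyses without 1 library or with the S number as a term (136 ± 30.7 to 90.1 ± 42.6 CPM, -0.59 ± 0.22 on the log2 scale). Cox4i1 was at 158 ± 15.3 and 198 ± 41.8 CPM in controls and at E4, Cox6a1 at 304 ± 66.7 and 334 ± 76.1 CPM, and Cox8a at 203 ± 19.4 and 157 ± 85.6 CPM. Cox6b1, which holds the complex IV dimer together, did not pass at E4 and rose at Ech, from 318 ± 22.7 to 443 ± 58.98 CPM (0.48 ± 0.18 (adjusted p = 0.048)), a call lost in 9 of 11 analyses that left out 1 library and in 5 of 10 alternatives. The muscle and testis forms Cox6a2, Cox6b2, Cox7b2 and Cox8b were at or below 2.37 CPM in the mean of spinal cord controls. Cox7b2 passed at Ech on a mean of 1.40 CPM in controls and none in any of the 6 Ech libraries, too low for a fold.

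In complex I, Ndufs1, the largest iron-sulfur subunit of the NADH-oxidising arm, fell at every stage of EAE in spinal cord. It was at 99.1, 102, 116, 116.96 and 140.0 CPM in controls and 58.5, 64.7, 70.9, 77.8 and 78.2 CPM at E1, and its lowest, median and highest values were 61.2, 72.6 and 93.3 CPM at E4 and 57.6, 64.4 and 74.9 CPM at Ech. No EAE library reached the lowest control, and the log2 fold changes were -0.71 ± 0.19 (adjusted p = 0.0089), -0.62 ± 0.18 (adjusted p = 0.0075) and -0.80 ± 0.18 (adjusted p = 0.00053). The call at E4 was lost with the S number as a term (adjusted p = 0.096) and that at E1 with only S numbers over 56 (adjusted p = 0.091). Eef1b2 lies on the opposite strand over Ndufs1, so their reads could not be separated if counting ignored strand. Ndufa12, an accessory subunit, was at 179, 210.1, 239, 243 and 358 CPM in controls and between 90.4 and 152 CPM at Ech, without overlap (-1.03 ± 0.20 (adjusted p = 6.6e-05)), and at E4 it fell by 0.65 on the log2 scale with overlap of the groups. The accessory subunits Ndufb3, Ndufa8 and Ndufc2 and the acyl carrier protein Ndufab1 also fell at E4, with log2 fold changes between -1.04 (Ndufab1) and -0.57 (Ndufc2), and Ndufc2 and Ndufa10 fell at Ech (-0.59 and -0.49). With the S number as a term Ndufa12, Ndufb3, Ndufa8, Ndufc2 and Ndufab1 did not pass at E4 (adjusted p from 0.089 to 0.22), and leaving out 1 library lost Ndufb3 in 9 and Ndufa8 in 4 of 11 analyses at E4 and Ndufa10 in 7 of 11 at Ech. Ndufc2 and Ndufa10 did not pass at Ech with only S numbers over 56 (adjusted p = 0.11 and 0.13).

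Of the 7 nuclear genes that rose at E4 or Ech, 3 were accessory subunits of complex I. Ndufb7 was at 88.7, 105, 121, 128 and 147 CPM in controls and 177, 191, 207, 219, 261 and 272 CPM at E4, with every E4 library above every control (0.91 ± 0.18 (adjusted p = 8.3e-05)). Ndufs6, a zinc-binding subunit added late in assembly, was at 58.99, 82.3, 93.5, 95.5 and 111 CPM in controls and 120.2, 143, 144, 153, 154 and 169 CPM at E4, again without overlap (0.74 ± 0.19 (adjusted p = 0.0028)). Both also rose at Ech, with log2 fold changes of 0.50, adjusted p = 0.043, and 0.54, adjusted p = 0.038, but leaving out 1 library lost these calls in 7 and 6 of 11 analyses, and they passed in 4 and 6 of 10 alternatives. At E4 Ndufb7 passed with the S number as a term (adjusted p = 0.029) and Ndufs6 did not (adjusted p = 0.087). Ndufa2, a small subunit of the NADH-oxidising arm, rose 1.49-fold at E1, from between 191 and 213 CPM in controls to between 268 and 336 CPM (0.58 ± 0.15 (adjusted p = 0.0085)), and 1.48-fold at E4 (0.57 ± 0.15 (adjusted p = 0.0024)). At Ech Ndufa2 was at 241 ± 23.1 CPM and did not pass (log2 fold change 0.27, adjusted p = 0.19). Annotated genes lie antisense to Ndufs6 (Mrpl36) and Ndufa2 (Tmco6), and their reads could not be separated if counting ignored strand.

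The 8 Ndufaf genes encode factors that help to build complex I and are not part of it, and 2 of them changed, in opposite directions. Ndufaf4 was at 66.4, 70.9, 77.3, 78.8 and 84.3 CPM in controls and 35.6, 41.8, 56.004, 62.1 and 72.9 CPM at E1, and at 24.4, 29.9 and 36.6 CPM (lowest, median, highest) at E4 and 30.9, 42.1 and 54.98 CPM at Ech. All libraries at E4 and Ech lay below all controls, and the lowest values were at E4. The log2 fold changes were -0.49, adjusted p = 0.13 at E1, -1.36 ± 0.21 (adjusted p = 2.4e-07) at E4 and -0.80 ± 0.20 (adjusted p = 0.0024) at Ech. Ndufaf8 rose, from 59.03 ± 14.04 CPM in controls to 89.1 ± 14.6 CPM at E4 (0.59 ± 0.19 (adjusted p = 0.018)) and 90.99 ± 11.1 CPM at Ech (0.62 ± 0.19 (adjusted p = 0.014)). Ndufaf4 passed with the S number as a term at E4 (adjusted p = 0.0049) and Ndufaf8 did not (adjusted p = 0.31). With only S numbers over 56 neither Ndufaf4 nor Ndufaf8 passed at Ech (adjusted p = 0.092 and 0.16). The other 6 factors did not pass at any stage in spinal cord.

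Complex II, which has no mitochondrial-encoded subunit, changed little. The flavoprotein subunit Sdha was at 219.8 ± 13.9 CPM in controls, 202 ± 30.7 at E4 and 182 ± 24.9 at Ech, with a log2 fold change of -0.12 at E4 (95% interval -0.42 to 0.18). The iron-sulfur subunit Sdhb was at 271 ± 42.4, 243 ± 40.1 and 258 ± 30.7 CPM, with -0.16 at E4 (95% interval -0.50 to 0.19). These intervals leave out a fall of the size seen in mt-Cytb. Of the membrane anchors, Sdhd was at 6.34 ± 5.36 and 5.12 ± 4.73 CPM, too low to show a change, and Sdhc fell at E4, from 217 ± 37.7 to 120.5 ± 94.2 CPM (-0.84 ± 0.32 (adjusted p = 0.045)), with values from 30.1 to 292 CPM over the 6 libraries. The call of Sdhc was lost in 9 of 11 analyses that left out 1 library and with the S number as a term (adjusted p = 0.24).

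In complex III the core proteins Uqcrc1 and Uqcrc2 and the Rieske iron-sulfur protein Uqcrfs1 fell at E4, and none of the 3 passed there with the S number as a term (adjusted p of 0.07, 0.15 and 0.18). Uqcrc1 was at 64.8, 80.4, 93.3, 101 and 135 CPM in controls and 43.6, 46.3, 50.2, 53.7, 65.3 and 80.3 CPM at E4 (-0.74 ± 0.21 (adjusted p = 0.005)), and it also fell at Ech (-0.70 ± 0.21 (adjusted p = 0.0097)). Uqcrc2 went from 31.99 ± 5.89 to 11.2 ± 7.19 CPM (-1.49 ± 0.44 (adjusted p = 0.0082)) without overlap, and Uqcrfs1 from 264 ± 40.9 to 119.9 ± 104 CPM (-1.13 ± 0.38 (adjusted p = 0.022)) with overlap. Uqcrb, a small subunit at the ubiquinone site, did not pass at E4 and rose at Ech, from 34.2, 42.1, 43.5, 65.3 and 122 CPM in controls to 166, 169.7, 183, 184, 196 and 202 CPM (1.57 ± 0.53 (adjusted p = 0.027)), with 40.6% of the windows at its 3′ end also in other annotated genes, and without 1 library its call was lost in 3 of 11 analyses. Uqcrb did not pass at Ech with the S number as a term (adjusted p = 0.051). In complex V, the c-ring gene Atp5g3 went from 1359 ± 200.5 to 778 ± 286 CPM at E4 (-0.80 ± 0.20 (adjusted p = 0.0018)), the catalytic beta subunit Atp5b fell by 0.47 on the log2 scale (adjusted p = 0.03), and Atp5s fell on 14.8 CPM in controls (-1.69 ± 0.56 (adjusted p = 0.019)). With the S number as a term none of these 3 passed (adjusted p of 0.12, 0.17 and 0.2), and Atp5b was lost in 6, Uqcrfs1 in 4 and Atp5s in 2 of 11 analyses without 1 library. The alpha subunit Atp5a1 did not pass (-0.19 ± 0.15 (adjusted p = 0.4)). Atp5o, in the stalk that joins the parts of the enzyme, fell at Ech (-0.68 ± 0.20 (adjusted p = 0.0088)), but did not pass with only S numbers over 56 (adjusted p = 0.053).

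At E1, the earliest clinical stage, 3 genes passed in spinal cord (Ndufa2, Cox7a1 and Ndufs1), or 2.91% against 8.42% of all genes (3.94% higher and 4.48% lower), and no mitochondrial gene did. The count was 8 with DESeq2, 6 with total counts in place of TMM, 5 with the filter of filterByExpr and 1 with only S numbers over 56, where Ndufa2 and Ndufs1 did not pass. mt-Cytb was at 8972, 9494, 10129, 13413 and 20383 CPM at E1 (log2 fold change -0.52, adjusted p = 0.11) and mt-Nd4 at 10707, 12944, 13184, 13319 and 24235 CPM (-0.39, adjusted p = 0.2). In both, 1 library lay with or above the controls and the other 4 below them, and that library was replicate 2, whose astrocyte markers also lay with the controls. Without it 7 genes passed, among them mt-Cytb at -0.77 (adjusted p = 0.0081) and mt-Nd4 at -0.64 (adjusted p = 0.022) on the log2 scale. Without replicate 1, the library with conflicting labels, 3 genes passed.

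Between Ech and E4 in spinal cord 2 genes passed (4.45% of all genes did, 2.41% higher and 2.03% lower). Cox7b was higher at Ech, with 147 ± 31.6 against 90.1 ± 42.6 CPM (0.70 ± 0.22 (adjusted p = 0.044)), and Cox7a2l was lower, with 24.8 ± 3.86 against 62.2 ± 49.4 CPM (-1.33 ± 0.39 (adjusted p = 0.033)). Leaving out single libraries gave between 0 and 9 genes, 9 without replicate 5 at E4, and lost Cox7b in 10 and Cox7a2l in 5 of 12 analyses. Neither passed with the S number as a term. No mitochondrial gene passed, and the log2 difference of mt-Nd2 was -0.43 ± 0.18 (adjusted p = 0.16) and that of mt-Cytb 0.15 ± 0.19 (adjusted p = 0.78).

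**Figure D3:**
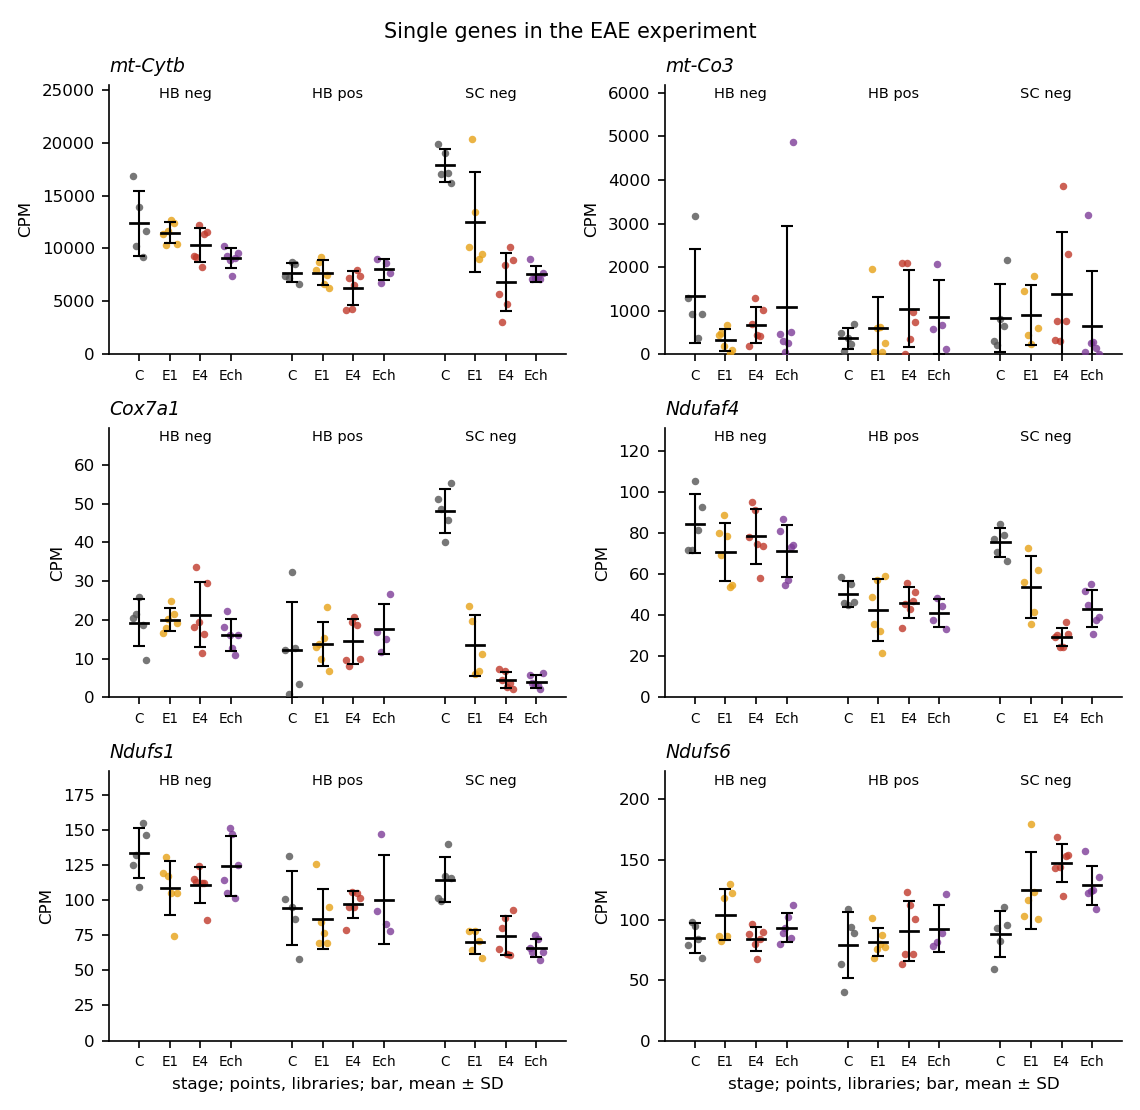
Level in CPM of mt-Cytb, mt-Co3, Cox7a1, Ndufaf4, Ndufs1 and Ndufs6 in each library of the 12 groups of the EAE experiment, each panel with its own axis from 0 and the mean ± SD beside the points. In spinal cord Cox7a1 drops from 48.2 CPM to 4.53 at E4 and mt-Cytb from 17846 to 6826 CPM, while mt-Co3, whose 3′ end is shared, spreads over more than 10-fold within a group.

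Whether the EAE response of spinal cord GLASTneg astrocytes differed from that of hindbrain GLASTneg astrocytes was tested as an interaction. At E1 no gene of the chain passed, as against 0.214% of all genes, and 6 of the 103 had an unadjusted p under 0.05. At E4, 6 genes passed (8.56% of all genes did, 2.36% with a higher and 6.2% with a lower response). The response was lower in the cord for Cox7a1 (-3.55 ± 0.61 (adjusted p = 1.1e-05)), Ndufaf4 (-1.25 ± 0.29 (adjusted p = 0.0017)), mt-Cytb (-1.12 ± 0.28 (adjusted p = 0.0041)) and mt-Nd1 (-0.72 ± 0.23 (adjusted p = 0.032)). It was higher there for Ndufb7 (0.97 ± 0.26 (adjusted p = 0.0078)) and Cox7a2l (3.24 ± 0.60 (adjusted p = 3.9e-05)). All are differences of log2 fold changes, to which a move in hindbrain the other way can add. With the S number as a term Cox7a1 and Cox7a2l passed and the others did not, with adjusted p of 0.12 for Ndufaf4, 0.054 for mt-Cytb, 0.11 for mt-Nd1 and 0.15 for Ndufb7, and mt-Nd1 was lost in 6 of 22 analyses without 1 library. At Ech, 5 genes passed (7.2% of all genes did, 5.47% with a lower response), all with a lower response in the cord: Cox7a1 (-3.28 ± 0.61 (adjusted p = 5.7e-05)), Ndufa12 (-1.15 ± 0.29 (adjusted p = 0.0047)), mt-Nd4 (-1.03 ± 0.27 (adjusted p = 0.0075)), mt-Nd2 (-1.01 ± 0.27 (adjusted p = 0.0085)) and mt-Nd5 (-0.90 ± 0.24 (adjusted p = 0.008)). For the other mitochondrial genes a difference between cord and hindbrain was not shown.

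In hindbrain astrocytes almost no gene of the chain passed against controls. In hindbrain GLASTneg astrocytes none passed at E1, E4 or Ech, as against 0.677, 0.755 and 0.197% of all genes by the test of edgeR, and 8, 1 and 7 of the 103 had an unadjusted p under 0.05 at these stages. In hindbrain GLASTpos astrocytes none passed at E1 or E4 (1.58 and 2.18% of all genes did), with 4 and 4 under an unadjusted 0.05, and 1 gene passed at Ech (1.43% of all genes, 1.24% higher). DESeq2 called 0, 0, 0, 0, 0 and 1 genes of the chain in these 6 comparisons in the same order. The 1 gene was mt-Co1, with 505, 1445, 1704 and 2789.7 CPM at Ech and 470.4, 473, 522, 666 and 788 CPM in controls (1.46 ± 0.39 (adjusted p = 0.031)). Its 3′ end is shared with other genes, 1 of the 4 Ech libraries lay among the controls, and the call was lost in 6 of 9 analyses that left out 1 library.

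Hindbrain values of the genes that fell most in the cord overlapped those of controls. mt-Cytb in hindbrain GLASTneg astrocytes lay between 9179 and 16858 CPM in controls, between 8199.9 and 12239.7 CPM at E4 and between 7377 and 10239 CPM at Ech, with overlap, and the log2 fold change at E4 was -0.26 (95% interval -0.65 to 0.12). Cox7a1 lay between 9.55 and 25.97 CPM in hindbrain GLASTneg controls and between 11.4 and 33.6 CPM at E4, and Ndufaf4 between 71.8 and 105 and between 58.02 and 95.2 CPM. Summed over the 7 genes with distinguishable ends, hindbrain GLASTneg astrocytes had 48851 ± 7972 CPM in controls, 44425 ± 3135 at E1, 41036 ± 5679.7 at E4 and 37751 ± 4095 at Ech, and hindbrain GLASTpos astrocytes 29457 ± 1845, 30541 ± 4877, 24282 ± 1988 and 28858 ± 3239 CPM. The summed astrocyte markers of the hindbrain groups had means from 21273 to 27838 CPM, without the drop seen in the cord.

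Among unimmunized mice, hindbrain GLASTneg astrocytes had higher mitochondrial-encoded transcripts than hindbrain GLASTpos astrocytes. Of the 103 genes 19 passed, 12 higher and 7 lower in GLASTneg astrocytes, or 18.4% against 13.5% of all genes (8.21% higher and 5.33% lower), and the median log2 difference of all genes was 0.11. The higher ones held 7 mitochondrial genes and 5 nuclear ones, and all 7 lower ones were nuclear. mt-Nd5 was at 2661, 2745, 2755, 2954 and 3396 CPM in GLASTneg and 1264, 1344, 1401, 1594 and 1728 CPM in GLASTpos controls (0.99 ± 0.18 (adjusted p = 2.4e-05)). mt-Nd1 was at 6653, 7869.7, 7904, 8854 and 10336 and 4557, 4624, 4812, 5066 and 5139 CPM (0.78 ± 0.17 (adjusted p = 0.00047)), and mt-Nd2 at 6874, 7469.6, 7866, 8311 and 8689.9 and 3602, 4664, 4924, 5225 and 5397 CPM (0.72 ± 0.20 (adjusted p = 0.0082)). In these 3 genes every GLASTneg library lay above every GLASTpos library, which held for 7.39% of all genes. mt-Nd6, mt-Cytb, mt-Nd4 and mt-Co1 were also higher, by 0.90, 0.68, 0.68 and 1.12 on the log2 scale with adjusted p of 0.0021, 0.018, 0.014 and 0.031. The mitochondrial ribosomal RNAs, which are no subunits of the chain and come from the same genome, differed more, with mt-Rnr1 at 38175 and 8792 CPM (log2 difference 2.12, adjusted p = 7.2e-10) and mt-Rnr2 at 30233 and 13882 CPM (1.12, adjusted p = 1.1e-05).

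The nuclear genes moved both ways between these populations. Sdhc, the cytochrome b anchor of complex II, was lower in GLASTneg astrocytes, with 81.5, 95.6, 109, 142 and 161 CPM against 354, 362, 396, 403 and 490.2 CPM (-1.77 ± 0.34 (adjusted p = 8e-05)), while Sdha (-0.21, adjusted p = 0.4) and Sdhb (-0.25, adjusted p = 0.37) did not pass. Cox6b2, the testis form of a complex IV subunit, was at 11.5, 13.99, 14.4, 14.6 and 14.9 CPM in GLASTneg libraries and at 0, 0, 0, 0.653 and 2.04 CPM in GLASTpos libraries (adjusted p = 0.003). Ndufa12 and Ndufaf4 were higher in GLASTneg astrocytes (0.83 ± 0.21 (adjusted p = 0.004) and 0.75 ± 0.22 (adjusted p = 0.011)), as was Uqcrh, the hinge protein of complex III (0.51 ± 0.17 (adjusted p = 0.033)). Ndufab1, Uqcrc1, Atp5f1, Ndufb4, Ndufc2 and Atp5a1 were lower, by 0.98 (Ndufab1) to 0.62 (Atp5a1) on the log2 scale. Cox8b passed on 1.25 CPM in GLASTneg and none in any GLASTpos library, too low for a fold. All GLASTneg hindbrain libraries carry S numbers up to 56 and all GLASTpos ones higher numbers, so that number and the GLAST sort cannot be told apart in this comparison. With the S number as a term, estimated from the spinal cord libraries, 6 genes passed (mt-Nd1, mt-Nd2, mt-Nd5, Sdhc, Ndufa12 and Ndufaf4). Oligodendrocyte markers summed to 1470.4 to 5103 CPM in GLASTneg and 1170.2 to 1336 CPM in GLASTpos controls and stress genes to 62.4 to 110.4 and 142 to 209.7 CPM, with ranges apart in both, and their part in these differences was not tested. Spinal cord and hindbrain GLASTneg controls differed in none of the 103 genes by the test of edgeR and in 5 by that of DESeq2, as against 5.33% of all genes by edgeR, and 17 had an unadjusted p under 0.05.

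Genes of the same pathway outside the chain were counted in spinal cord from lists drawn up with the design, beside 9.76% of all genes that rose and 12.7% that fell at E4 and 7.64% and 11.0% at Ech. Of 13 genes of the tricarboxylic acid cycle none rose and 7 fell at E4, and none rose and 4 fell at Ech, with median log2 fold changes of -0.61 and -0.51. At E4 they included Cs, citrate synthase, from 184 to 89.3 CPM (log2 fold change -1.04, adjusted p = 4.6e-05). Of 8 regulators of nuclear respiratory genes 2 fell at E4 and 3 at Ech: Ppargc1a went from 101 to 3.51 CPM (log2 fold change -4.84, adjusted p = 1.2e-18) at E4 and was at 6.97 CPM at Ech (-3.82, adjusted p = 7.7e-16), Esrra went from 29.8 to 4.96 CPM (log2 fold change -2.54, adjusted p = 1.7e-05), and Nrf1 fell at Ech (-0.82, adjusted p = 0.021). Of 21 genes of mitochondrial transcription, replication and RNA stability 1 rose and 1 fell at E4, and the one that rose was Lrpprc, which binds and stabilises mitochondrial messengers, from 148 to 269 CPM (log2 fold change 0.86, adjusted p = 0.00092). Tfam, which packages and transcribes the mitochondrial genome, did not pass (-0.74, adjusted p = 0.096). Of 11 genes of mitochondrial mass and import 1 rose and 2 fell at E4 and 3 rose at Ech, with the chaperone Hspd1 up at both, from 259 to 694 CPM (log2 fold change 1.42, adjusted p = 0.004) at E4, and the outer membrane channel Vdac1 down at E4 (-0.97, adjusted p = 0.00038).

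The assembly genes outside the Ndufaf family changed in few cases, to be read beside the same shares of all genes. Of 15 genes for the assembly of complex IV 1 rose and 1 fell at each of E4 and Ech, and of 6 for complex III none rose, 3 fell at E4 (Ttc19, Bcs1l and Uqcc2) and 1 at Ech. Of 6 further factors of complex I 1 fell at E4, and of the 3 genes for assembly and inhibition of complex V the inhibitor Atpif1 rose at Ech (1.14, adjusted p = 0.00013). Cyc1, the cytochrome c1 of complex III, which the rule on symbols leaves out, fell at E4 (-0.82, adjusted p = 0.0017). Of the ribosomal RNAs of the mitochondrial genome, mt-Rnr2 fell at E4 (-0.82, adjusted p = 0.00034) and at Ech (-0.96, adjusted p = 3.7e-05), and mt-Rnr1 was at 22988 CPM in controls and 21302 at E4 (-0.11, adjusted p = 0.84) and fell at Ech (-0.62, adjusted p = 0.045). Of 88 cytosolic ribosomal protein genes 47 rose at E4 and 63 at Ech, and 1 fell at each, with medians of 1.12 and 1.48.

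Promoters of nuclear members are shown because regulators with known short motifs moved with the stage. In the 300 bases from 250 before to 50 after the start of each gene in RefSeq (GRCm38.p6), the letters TGCGCA, the core of the NRF1 site and the same on both strands, occur in 18 of the 74 nuclear members matched by symbol, or 24.3%, and in 2178 of 27025 promoters of all genes, or 8.06%. The letters AAGGTCA, or TGACCTT on the other strand, which an ERR factor can bind, occur in 8 of 74, or 10.8%, and in 1259 of all promoters, or 4.66%. A match is a description of the letters and not a site shown to be bound. The promoters of all genes were not matched to the members in base composition or level, and members without a symbol match were not searched. A link of the motifs to the changes with stage was not tested. The promoters of Ndufaf4, which fell, Ndufs6, which rose, and Cox7a1, which fell, are printed 5′ to 3′ along the gene with TGCGCA in capitals, which occurs 2 times, 1 time and not at all.

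Ndufaf4 (chr4:24897833-24898132, plus strand): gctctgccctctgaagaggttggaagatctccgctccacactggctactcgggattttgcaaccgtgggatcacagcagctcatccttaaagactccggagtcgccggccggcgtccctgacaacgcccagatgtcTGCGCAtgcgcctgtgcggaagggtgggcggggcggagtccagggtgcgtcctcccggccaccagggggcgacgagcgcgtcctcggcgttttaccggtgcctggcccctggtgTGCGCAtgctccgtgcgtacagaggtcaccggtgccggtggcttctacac
Ndufs6 (chr13:73328433-73328732, minus strand): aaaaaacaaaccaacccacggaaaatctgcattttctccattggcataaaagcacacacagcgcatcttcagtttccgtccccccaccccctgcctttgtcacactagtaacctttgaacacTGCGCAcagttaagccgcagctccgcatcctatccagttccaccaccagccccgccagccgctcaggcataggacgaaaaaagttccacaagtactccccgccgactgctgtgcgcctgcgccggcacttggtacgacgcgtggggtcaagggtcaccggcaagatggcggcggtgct
Cox7a1 (chr7:30183921-30184220, plus strand): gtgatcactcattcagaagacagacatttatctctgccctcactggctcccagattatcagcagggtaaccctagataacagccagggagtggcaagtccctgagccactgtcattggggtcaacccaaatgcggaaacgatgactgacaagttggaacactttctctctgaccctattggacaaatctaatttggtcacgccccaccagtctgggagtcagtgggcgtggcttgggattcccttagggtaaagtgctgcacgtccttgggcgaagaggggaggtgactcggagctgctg

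In the subtype experiment the chain was measured in 5 populations of untreated FVB/N astrocytes, and 100 of the 103 genes reached the count minimum in the fit. By their labels, the 7 mitochondrial genes with distinguishable ends summed to 44994 ± 5542 CPM in forebrain GLASTneg, 69696 ± 18159.7 in forebrain GLASTpos, 54506 ± 10235 in hindbrain GLASTneg, 40942 ± 8396 in hindbrain GLASTpos and 56399.5 ± 18552 in spinal cord GLASTneg astrocytes (n = 3 each). The nuclear genes had means from 13446 to 15096 CPM. Replicate 1 of the libraries labelled spinal cord stood apart, with 77678 CPM for the mitochondrial and 21225 CPM for the nuclear sum. Each group was tested against the mean of the other 4, and these tests share their libraries. In the libraries labelled forebrain GLASTpos 4 genes were higher (2.25% of all genes passed, 1.93% higher): mt-Nd1 (0.72 ± 0.14 (adjusted p = 0.00025)), mt-Nd2 (0.55 ± 0.14 (adjusted p = 0.012)), mt-Nd4 (0.50 ± 0.14 (adjusted p = 0.035)) and mt-Co1 (0.84 ± 0.18 (adjusted p = 0.0016)). The other table of the study names these libraries hindbrain GLASTneg. Without replicate 2 of this group none of the 4 passed, and without replicate 1 of the group labelled spinal cord 7 genes did.

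In the libraries labelled hindbrain GLASTpos, which the other table of the study names forebrain GLASTpos, mt-Cytb was lower (-0.50 ± 0.15 (adjusted p = 0.041), with 3.29% of all genes passing and 1.29% lower), with values of 9388, 9786 and 13254 CPM, and the call was lost in 6 of 15 analyses without 1 library. In those labelled spinal cord GLASTneg 4 genes were higher (9.38% of all genes passed, 5.04% higher). The clearest was Cox7b2, the testis form of complex IV subunit 7b, at 28.9, 50.6 and 90.8 CPM there against at most 17.1 CPM in the other 12 isolated libraries (2.95 ± 0.56 (adjusted p = 4.9e-05)). The other table of the study names these libraries hindbrain GLASTpos, and in the EAE experiment Cox7b2 was at 12.99 ± 3.79 CPM in hindbrain GLASTpos controls, 4.91 ± 2.05 CPM in hindbrain GLASTneg and 1.40 ± 1.37 CPM in spinal cord controls. The other 3 were mt-Nd5 (0.61), mt-Co1 (0.66) and the assembly factor Ndufaf7 (1.37), and without replicate 3 of this group 13 genes passed. In the libraries labelled forebrain GLASTneg and in those labelled hindbrain GLASTneg, which the other table names spinal cord GLASTneg, no gene passed by the test of edgeR (1.53 and 5.22% of all genes did), with 6 and 5 of 100 under an unadjusted p of 0.05 and 0 and 0 called by DESeq2.

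Cultured neonatal astrocytes had lower mitochondrial-encoded transcripts than each isolated group of the same experiment. The 7 genes with distinguishable ends summed to 15332 ± 4317 CPM, and the nuclear genes to 15365 ± 2789 CPM. The nuclear mean lay above the means of the isolated groups and within the range of their libraries (9885 to 21225 CPM). CPM of isolated libraries came from scaling without the cultured ones. The log2 of the mitochondrial to nuclear counts, free of scaling, was -0.00817 against 1.48 to 2.21 in the means of isolated groups. Against the mean of the 5 isolated groups 36 of 100 genes passed, 11 higher and 25 lower, beside 36% of all genes (26.3% higher and 9.79% lower), and the median log2 difference of all genes was 0.43. All 7 mitochondrial genes with distinguishable ends and 2 of 5 tested with shared ends were lower, and 11 of 88 nuclear genes were higher and 16 lower. Of the 7, mt-Atp8 held 57 counts in total over all libraries of the experiment, too low for a fold. mt-Nd2 was at 1509.6, 1574 and 1939 CPM in culture and at 6202 to 14243 CPM in the isolated libraries (-2.43 ± 0.19 (adjusted p = 1.9e-14)), and mt-Cytb at 2249, 3872 and 4711 CPM against 9388 to 23830.2 CPM (-2.01 ± 0.21 (adjusted p = 9.6e-11)). Neither range overlapped. Markers of pericytes and mural cells summed to 763 to 2893 CPM in culture against 14.3 to 173 CPM in isolated libraries. Myeloid markers summed to 448 to 3478 against 17.5 to 260.3 CPM, and endothelial markers to 221 to 263 against 2.33 to 40.8 CPM. Oligodendrocyte markers went the other way, with sums of 429 to 545 CPM in culture against 1354 to 15303 CPM. Astrocyte markers summed to 5552 to 6127 CPM in culture against 22630 to 30951 CPM, and stress genes to 327 to 435 against 52.5 to 265 CPM, none overlapping, and their part in the differences was not tested.

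Of the nuclear genes, Cox6b2 (79.6 ± 24.8 CPM in culture, 2.60 ± 0.41 (adjusted p = 1.4e-06)), Cox7a2l (168 ± 43.004 CPM, 1.66 ± 0.33 (adjusted p = 8.6e-05)), Ndufa3 (1.10 ± 0.28 (adjusted p = 0.0017)), Cox6a1 (1.04 ± 0.20 (adjusted p = 5.5e-05)) and Sdha (299.7, 323 and 331 CPM, 0.93 ± 0.19 (adjusted p = 0.0001)) were higher in culture. Cox7b2, Ndufaf4, Cox5b and Ndufaf2 were lowest relative to the isolated groups, by -4.77, -1.55, -1.35 and -1.15 on the log2 scale. Ndufaf4 was at 17.9, 21.8 and 33.9 CPM in culture, below every isolated library. Of the regulators, Ppargc1a was at 44.8 CPM in culture and 174 CPM in isolated astrocytes (-1.94, adjusted p = 1.7e-07), and the ribosomal RNA mt-Rnr2 at 9104 and 72075 CPM (-2.99, adjusted p = 4.4e-13). Culture, the conditioned medium, origin from cerebrum alone, neonatal age, strain, the lysis reagent and the absence of sorting changed together in this comparison and cannot be told apart.

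**Figure D4:**
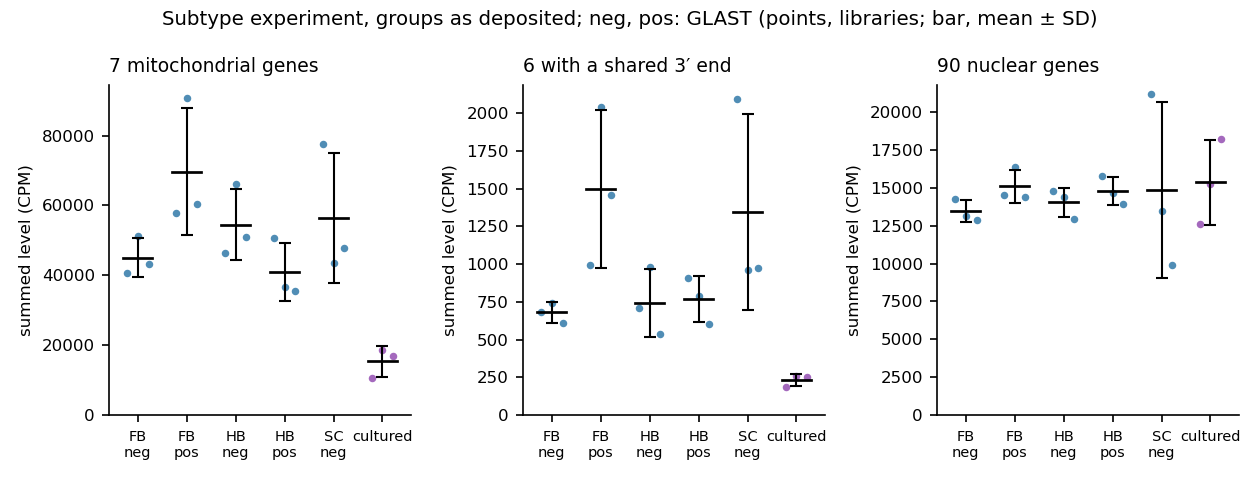
Summed level in CPM of the 7 mitochondrial genes with distinguishable 3′ ends, the 6 with shared ends and the 90 nuclear genes in each of 3 libraries of the 5 isolated groups, named as labelled, and of cultured astrocytes, with the mean ± SD. Cultured astrocytes lie at 15332 CPM for the 7 genes, below all isolated groups, and at 15365 CPM for the nuclear genes, within the range of isolated libraries. Isolated libraries were scaled without the cultured ones.

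The levels of single nuclear genes depended on the experiment as well as on the cells. Mean levels over the 66 EAE libraries ran from 0.294 CPM for Cox8b to 1301 CPM for Atp5g3, on a scale of transcript ends that is not divided by length. Cox6a2, Cox6b2, Ndufaf6 and Cox7b2 were the next lowest and Atp5a1, Cox7c, Atp5k and Atp5b the next highest. Uqcrc1 was counted in every EAE group and was at 0 in all 18 libraries of the subtype experiment, which is not a statement on its expression there. Cox7c, 73.3% of whose 3′ windows occur in other annotated genes, was at a mean of 574 CPM in the EAE experiment. The 6 mitochondrial genes with shared ends had 2.52 to 52.2 counts per 100 counts of the other 7 in EAE libraries and 1.05 to 2.70 in isolated libraries of the subtype experiment, and the pseudogenes of the chromosome 1 block had medians of 54.3 and 552 CPM.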

How the data were processed

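Sorted or cultured astrocytes were profiled with QuantSeq 3′ libraries and single reads of 50 bases. The authors aligned reads with HISAT 0.1.5 to GRCm38 and counted them per gene with HTSeq 0.6.1p1 in union mode, and deposited raw counts as 1 table per experiment, without normalization. Whether counting used strand is not given in the sources used here. Groups came from the sample titles. No deposited column was left unmapped, and no pair of libraries held identical counts.

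From these counts, edgeR 4.0.16 (R 4.3.3) was run with TMM scaling and its quasi-likelihood test on genes with at least 10 counts in total: 23324 genes in 1 fit of the 66 EAE libraries, 14957 in the 15 isolated libraries and 17126 with the cultured libraries. Benjamini-Hochberg adjustment was over all genes of a fit, and tests were two-sided. Gene identifiers were matched to GENCODE M21 on GRCm38 (48058 of 48526 and 25608 of 25773 matched). Shared 3′ ends were found by comparing all 50-base windows of the last 300 bases of each transcript with the other annotated transcripts. Genes that overlap a gene's own position were left out. Sequences come from GENCODE transcripts and, for promoters, RefSeq.

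The genes and lists were chosen with earlier results of these data known. Named were all mitochondrial genes, the Sdh genes, the paired complex IV forms, the 4 largest changes each way per comparison among passing genes with at least 5 CPM, and the 5 highest and 5 lowest nuclear genes. Other passing members were named after their values were seen. Results for some genes are not reported here. Alternatives were DESeq2 1.42.0, other scalings and filters, a replicate block, the S number, spinal cord alone and leaving out each library. Libraries with the same replicate index did not deviate together (mean r of -0.00119 in the EAE and -0.00496 in the isolated libraries). The labels do not say what the number shared between titles is, so libraries were not paired, and a block by it was added after the data were seen. Intervals cover counting and replicate error in the model only, and reads carried no molecular identifiers. Counts simulated with known changes, from gene means of the libraries and a common spread for all genes, were used to check the code of the calling. They lack the uneven spread of the real libraries, so they do not measure the error rate of the calls. Python 3.11.15 was used for summaries and figures.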

Additional observations from a re-analysis of the deposited data

Results flagged for a closer look

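Spinal cord replicate 2 at E1 lay apart from the other 4 libraries of its group, with 7.63% of counts from all 13 mitochondrial-encoded genes, 7.21% from the 7 with distinguishable ends and a log2 ratio of those to the nuclear genes of 2.17. The summed level of the 6 genes with shared ends stood apart at 1.33% of counts in hindbrain GLASTneg control replicate 3, 1.38% in hindbrain GLASTneg Ech replicate 6 and 1.32% in spinal cord Ech replicate 2. These were 6 of 72 groups of values examined by the gap of the extreme library to its neighbour, and chance flags about 1 in 20.

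The response of spinal cord and hindbrain GLASTneg astrocytes differed by the interaction test of edgeR in 6 genes at E4 and in 5 at Ech, which the report names. Cox7a1 was the gene in both lists.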

How the results depend on the processing

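The 6 mitochondrial genes that fell in spinal cord at E4 and Ech, and Cox7a1 at E1, E4 and Ech, passed in every alternative run and without any single library. No passing gene changed direction in the alternatives, while the small ratio differences of hindbrain GLASTpos and, as the mean of log2(CPM + 1), that of spinal cord at E1 crossed 0. Several counts of passing genes did move, with groups of the subtype experiment named as labelled. With DESeq2 there were 8 at E1 in spinal cord (3 in edgeR), 5 between cord and hindbrain controls (0), 7 between Ech and E4 (2), 12 and 11 for the interactions at E4 and Ech (6 and 5) and 0 for hindbrain GLASTpos in the subtype experiment (1). With total counts in place of TMM there were 6 at E1, 2 between control regions and 8 between Ech and E4. Without the filter there were 1 between control regions, 4 between Ech and E4, 2 for forebrain GLASTneg (0) and 3 for hindbrain GLASTpos. With filterByExpr there were 5 at E1, 2 between control regions, 8 for the interaction at Ech, 2 for forebrain GLASTpos (4) and 0 for hindbrain GLASTpos. With DESeq2 size factors in edgeR forebrain GLASTneg gave 1 and hindbrain GLASTpos 2.

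With the S number as a term 11 genes passed at E4 in spinal cord (27), 6 between hindbrain populations (19), 0 between Ech and E4 and 2 for the interaction at E4. With only libraries of S numbers over 56 there were 1 at E1 and 10 at Ech (20). Spinal cord libraries alone gave 1 between Ech and E4. With the replicate block, whose numbers do not pair the libraries, 26 passed at E4 (27), 16 at Ech (20), 18 between hindbrain populations (19), 1 for forebrain GLASTneg and 2 for hindbrain GLASTpos. Of 49 pairs of libraries of a stage that share a number in the brackets of their titles, 3 had deviations with r over 0.1. The mean r was 0.02 (from -0.047 to 0.125), against -0.003 in other pairs of a stage. The deviations run over all genes of the fit, low counts among them, so a low r cannot decide whether such libraries are related. In the main fits the number was not used to pair libraries. A replicate block by that number, added after the data were seen, can be fitted only between populations, and gave 26 between hindbrain populations (19), 5 between control regions (0) and 3, 7 and 10 for the interactions at E1, E4 and Ech (0, 6 and 5). The cause of these moves was not tested. Under the other population names of the subtype experiment the same calls carry new names, 1 for forebrain GLASTpos, 4 for hindbrain GLASTneg, 4 for hindbrain GLASTpos and 0 for spinal cord.

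Taken as the mean of log2(CPM + 1) over genes, which weights genes alike, the mitochondrial to nuclear difference was -1.29, -0.585 and -0.878 in hindbrain GLASTneg at E1, E4 and Ech, 0.322, 0.38 and 0.791 in hindbrain GLASTpos, and 0.0821 and -0.027 in spinal cord at E1 and E4. With only the 7 genes with distinguishable ends, an alternative added after the data were seen, the differences of summed counts were -0.452, -0.843 and -1.22 in spinal cord.

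Leaving out 1 library at a time gave 3 to 7 genes at E1, 21 to 33 at E4 and 14 to 19 at Ech in spinal cord, 15 to 20 between hindbrain populations, 0 to 1 between control regions, 0 to 9 between Ech and E4, 5 to 10 and 5 to 8 for the interactions at E4 and Ech and 0 to 1 for GLASTpos at Ech. Groups of the subtype experiment are named here as labelled, and the other table of the study names those labelled spinal cord as hindbrain GLASTpos. Leaving out 1 library there gave 0 to 2 for forebrain GLASTneg, 0 to 7 for forebrain GLASTpos, 0 to 2 for hindbrain GLASTneg, 0 to 3 for hindbrain GLASTpos, 3 to 13 for spinal cord and 26 to 41 in culture. The log2 ratio differences ran from -0.379 to -0.196, -0.39 to -0.209 and -0.451 to -0.27 in hindbrain GLASTneg, from -0.0193 to 0.121, -0.161 to 0.0335 and -0.0268 to 0.288 in hindbrain GLASTpos, and from -0.512 to -0.32, -0.882 to -0.637 and -1.22 to -1.10 in spinal cord, at E1, E4 and Ech. At E1 the count was 7 without replicate 2 and 5 without replicate 5. Between Ech and E4 it was 9 without E4 replicate 5, 0 without E4 replicate 3, Ech replicate 1 or Ech replicate 6, and 1 without E4 replicate 1, 2, 4 or 6 or Ech replicate 4 or 5. Between control regions it was 1 without replicate 3 of either. The interaction at E4 gave 10 without spinal cord E4 replicate 5, and that at Ech 8 without spinal cord control replicate 3. GLASTpos at Ech gave 0 without control replicate 1, 2, 3 or 4 or Ech replicate 1 or 2. In the subtype experiment, leaving out replicate 1, 2 or 3 of the group labelled spinal cord gave 1, 1 and 2 for forebrain GLASTneg and 2, 3 and 3 for hindbrain GLASTpos. Spinal cord replicate 1 or 3 gave 1 and 2 for hindbrain GLASTneg, and replicate 3 gave 13 for spinal cord. Forebrain GLASTpos gave 7 without spinal cord replicate 1 and 2 and 0 without its own replicates 3 and 2. Hindbrain GLASTpos gave 2 without its own replicate 1 and 0 without its own replicates 2 and 3, hindbrain GLASTneg replicates 2 and 3, forebrain GLASTneg replicate 2 or forebrain GLASTpos replicate 2. Other scalings moved the median log2 difference of all genes between 0.12 and 0.71 in culture and between 0.00 and 0.32 between hindbrain populations. Depth limits genes of a few CPM such as Sdhd, and shared ends limit 6 mitochondrial genes at any depth.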
